A study of Mus musculus with 46 samples.

Results

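The regions described here are promoters of mouse visceral adipose tissue that carried trimethylation of histone H3 lysine 4 (H3K4me3) together with acetylation of lysine 27 (H3K27ac), without trimethylation of lysine 27 (H3K27me3). A region was counted when a peak of the first H3K4me3 vehicle library at 5 weeks touched a peak of the second, touched a peak in both H3K27ac vehicle libraries of that time, touched no H3K27me3 peak of either vehicle library, and was under 4000 bp wide. Of the 19007 peaks in the first H3K4me3 list, 11572 (60.9%) met this rule. They are called active promoters for their marks alone. Their positions were not compared with gene starts, and regions are given by mm9 coordinates with no gene name, because no mm9 annotation was used here.

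H3K4me3 is laid down around the starts of genes by the SET1 and MLL methyltransferase complexes and removed by KDM5 demethylases. H3K27ac is written mainly by the acetyltransferases p300 and CBP and marks promoters and enhancers in use. H3K27me3 is the mark of Polycomb repression, and lysine 27 of a given histone tail cannot carry it and the acetyl group together.

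Mice were given corticosterone (CORT) as a model of Cushing's syndrome, the state of chronic glucocorticoid excess, or vehicle (VEH). The labels call the CORT mice sampled at 5 weeks active disease and those sampled at 15 weeks recovered, each time with its own VEH group, and refer to an earlier paper for the treatment. Each mark was profiled by ChIP-seq with a Drosophila chromatin spike-in in 2 libraries per group, next to 1 input for CORT and 1 for VEH, and RNA was sequenced from 5 libraries per group. The labels used here give no strain, sex or age, and do not say whether libraries came from separate animals, so any p-value covers only the spread between these libraries. Adipoq, which encodes the fat cell hormone adiponectin, was at 1641 to 4016 FPKM in the 20 RNA libraries, while the liver transcript Alb stood at 2095 FPKM in 1 library, the sperm protamine Prm2 at 129 to 570 FPKM in 4 and the epididymal Crisp1 at 649 to 1430 FPKM in 3, together 7 libraries.

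The rule kept 16648 of the 19007 peaks for H3K4me3 in the second library, then 12751 for H3K27ac, then 12270 for the absence of H3K27me3, and the width limit removed 698 broad domains. The active promoters had a median width of 2005 bp, with the middle 50 percent of them between 1593 and 2499 bp and the narrowest at 596 bp. The broad domains had a median width of 4780 bp, the peaks that also carried H3K27me3 1528 bp, and the H3K4me3 peaks without H3K27ac in both libraries 1203 bp. These widths and marks chose the regions and are a description.

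The width limit cut through a continuous range. The 3 widest active promoters were chr16:95923125-95927122 (3998 bp), chr19:7413210-7417206 (3997 bp) and chr2:151367204-151371199 (3996 bp). The 3 narrowest domains beyond it were chr17:29229984-29233983 (4000 bp), chr6:134930909-134934908 (4000 bp) and chr5:20559216-20563217 (4002 bp). In the authors' deposited tables, H3K4me3 at 15 weeks differed between CORT and VEH by 1.12, 1.21 and 1.11 log2 units at the regions just inside and by 1.43, 0.88 and 1.04 just outside.

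The active promoters were spread along every chromosome, with 329 to 976 on each autosome, 299 on X and 5 on Y. The median gap to the next one was 56.0 kb, and 347 of 11551 gaps were under 1 kb. The acetylated region over an active promoter was of similar extent to the methylated one. In the VEH libraries at 5 weeks, the H3K27ac peak had a median width of 2277 and 2250 bp, covered a median of 95.8% and 95.1% of the H3K4me3 peak, and had its centre 183 and 181 bp away at the median. It was the wider of the pair at 59.9% and 58.6% of the promoters.

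H3K4me3 at these promoters was found again in nearly every library. Outside the library that defined them, a H3K4me3 peak lay over 99.5% and 98.02% of the active promoters in the CORT libraries at 5 weeks, 96.8% and 99.7% in VEH at 15 weeks, and 99.8% and 99.6% in CORT at 15 weeks. The lowest of these, the first VEH library at 15 weeks, was a control library. In all 8 H3K4me3 libraries, 11041 (95.4%) of the active promoters had a peak. Peaks of the same H3K4me3 list that were not active promoters had a peak in 74.2% to 94.5% of cases in these same 6 libraries. The active promoters had the higher share in each, but the rule had already required a peak in the second VEH library at 5 weeks. Only 68.3% of the other peaks had one there, so the 2 sets were not chosen alike.

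**Figure D1:**
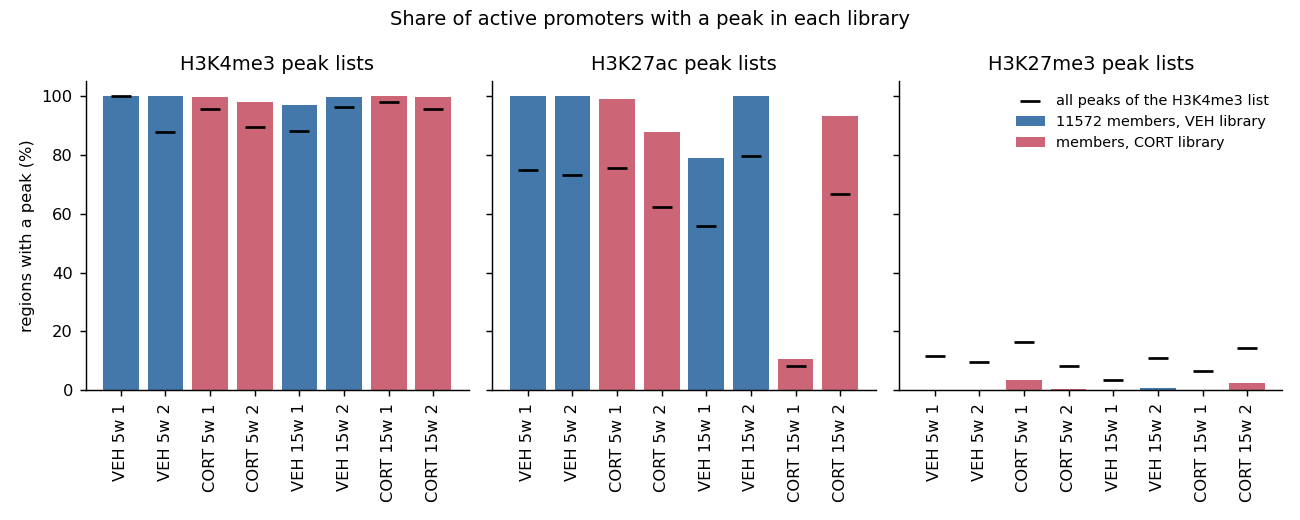
Share of the 11572 active promoters with an overlapping peak in each library (bars, blue for VEH and red for CORT) and of all 19007 peaks of the defining H3K4me3 list (black lines), by mark. H3K4me3 bars stay above 96%, while H3K27ac falls to 10.8% in the first CORT library at 15 weeks, whose list holds 1810 peaks.

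H3K27ac was called over fewer of them, and its share followed the length of each library's list. A H3K27ac peak lay over 98.9% of the active promoters in the first CORT library at 5 weeks (41590 peaks in the list) and 87.7% in the second (22165 peaks). At 15 weeks it was 79.0% and 100% in VEH (20644 and 52108 peaks), where the second count was 11567 of 11572, and 10.8% and 93.0% in CORT (1810 and 29341 peaks). The first CORT library at 15 weeks therefore stands apart for H3K27ac, and without it 8791 promoters (76.0%) had the acetyl mark in the other 7 libraries, against 1245 with it. Both marks were called in both CORT libraries at 5 weeks at 9991 active promoters (86.3%).

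The promoters that lacked a H3K4me3 call in CORT at 5 weeks were narrow and had low peak scores. Neither CORT library at 5 weeks had a H3K4me3 peak at 42 active promoters (0.363%), whose median width was 1035 bp and whose median peak caller score was 79.3, against 1368 over all active promoters. Of these 42, 34 had a H3K4me3 peak in a CORT library at 15 weeks. Only 8 active promoters had no H3K4me3 peak in any of the 4 CORT libraries, and only 10 had none in either CORT library at 15 weeks.

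Width went with how often a promoter was found. A H3K4me3 peak was present in all 8 libraries at 56.9% of the 566 promoters under 1000 bp, at 94.8% of the 5180 from 1000 to under 2000 bp, at 99.6% of the 4589 from 2000 to under 3000 bp and at 100% of the 1237 from 3000 bp on. Some promoters of ordinary width in the defining library were called wide elsewhere. The H3K4me3 peak reached 4000 bp at 1.37% of the active promoters in the second VEH library at 5 weeks, at 11.2% and 2.31% in CORT at 5 weeks, at 2.15% and 6.04% in VEH at 15 weeks, and at 8.58% and 9.06% in CORT at 15 weeks. The median width over the active promoters was 2005 and 2019 bp in VEH and 2509 and 2086 bp in CORT at 5 weeks, where the first VEH library set the width limit. At 15 weeks it was 2019 and 2280 bp in VEH and 2292 and 2440 bp in CORT. At 15 weeks both CORT libraries were above both VEH libraries in this median and in the share reaching 4000 bp. The same order at 5 weeks was partly set by the rule. It allowed no active promoter to reach 4000 bp in the first VEH library, which also bounds that library's median. With 2 libraries against 2, a two-sided exact permutation test cannot reach p below 0.333.

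**Figure D2:**
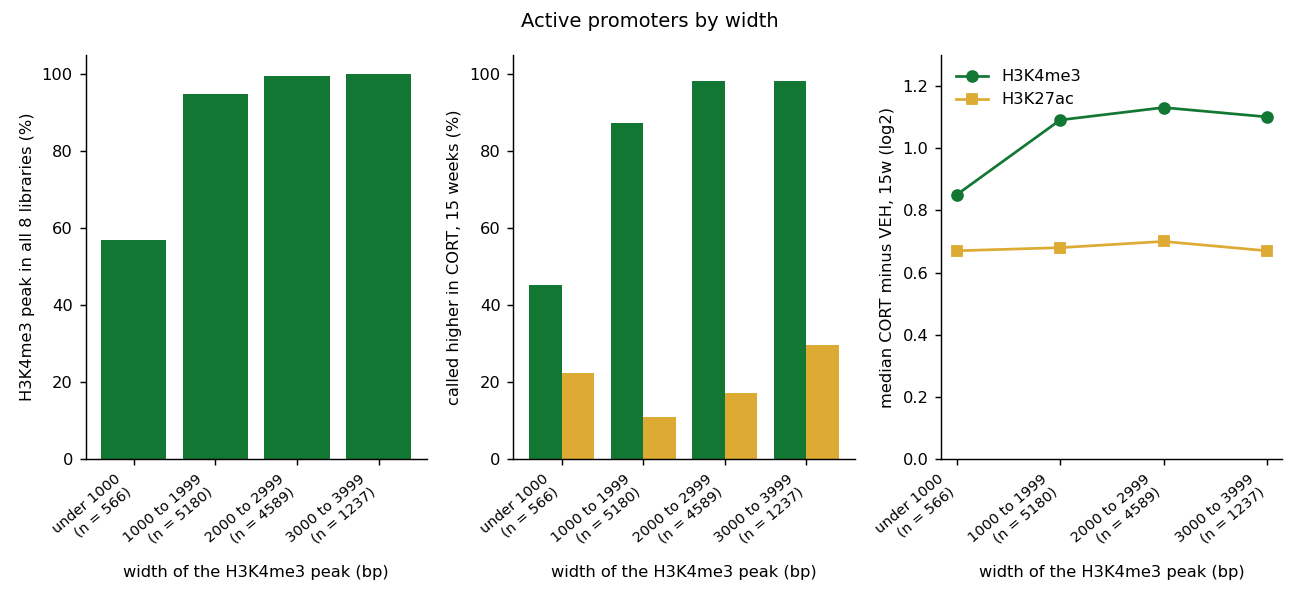
Active promoters in 4 classes of H3K4me3 peak width: share with a H3K4me3 peak in all 8 libraries (left), share called higher in CORT at 15 weeks in the authors' deposited tables (middle) and median log2 difference at 15 weeks (right), for H3K4me3 in green and H3K27ac in yellow. The narrowest class stands apart for H3K4me3, with 56.9% present in all 8 libraries and 45.1% called.

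H3K27me3 stayed nearly absent. Of the 11572 active promoters, 480 (4.15%) had a H3K27me3 peak in any of the other 6 libraries. The CORT libraries at 5 weeks had 397 and 39 such promoters, VEH at 15 weeks 2 and 86, and CORT at 15 weeks 12 and 277. In the same order these were 3.43% and 0.337%, 0.017% and 0.743%, and 0.104% and 2.39%. Over all peaks of the H3K4me3 list the shares were 16.4% and 8.29%, 3.39% and 11.2%, and 6.46% and 14.4%. The rule had chosen the active promoters for having no such peak in VEH at 5 weeks. In each of these 3 groups, 1 library held most of the promoters and the other few. The library with more had the longer list each time, with 11090, 8284 and 9105 peaks against 4430, 2255 and 4599. At 5 weeks 30 promoters had it in both CORT libraries, at 15 weeks 8 had it in both CORT libraries, and none had it in both VEH libraries at 15 weeks. It was called in all 4 CORT libraries at chr16:78301192-78303284 and chr7:35971082-35972756, which were named after their values were seen. Both had a H3K4me3 difference near the middle of all sites at 15 weeks, 0.86 and 0.82 log2 units in the authors' deposited table, with FDR of 9.57e-05 and 0.000211.

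The level of each mark was read from the authors' deposited tables of ChIP against input, which give a log2 mean of normalised reads per group. Over input, the median H3K4me3 level at the active promoters was 3.34 log2 units in VEH and 3.67 in CORT at 5 weeks, and 3.92 in VEH and 4.58 in CORT at 15 weeks. The sites of the same tables that held no active promoter had medians of 1.97, 1.72, 1.70 and 1.64. H3K27ac over input had a median of 2.64 log2 units in VEH and 2.54 in CORT at 5 weeks, and 2.52 in VEH at 15 weeks. These tables were made separately for each group, so the medians stand side by side with no test between groups.

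**Figure D3:**
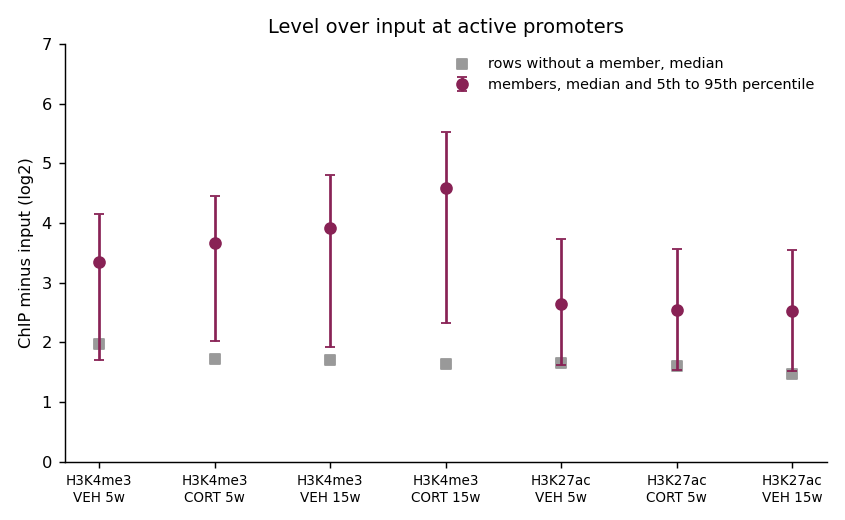
Level over input (log2, ChIP minus input, from the authors' deposited tables) at the active promoters in 7 groups. Points are medians over promoters and bars run from the 5th to the 95th percentile of promoters, while grey squares are medians of sites that hold no active promoter. H3K4me3 medians run from 3.34 to 4.58 and H3K27ac medians from 2.52 to 2.64.

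The comparison of CORT with VEH asks whether these promoters change with the disease and whether they have returned after recovery. At 15 weeks, whose libraries took no part in choosing the promoters, H3K4me3 was higher in CORT at nearly all of them. In the authors' deposited table, 11555 active promoters had a site, with a median VEH level of 8.56 and a median CORT level of 9.67 log2 units. Their median difference was 1.11 log2 units (2.16-fold), and for the middle 50 percent it ran from 0.99 to 1.19. The table called 10489 of them (90.8%) higher at FDR below 0.05, against 47.1% of all 31037 sites, and 0 lower, against 0.0% of all sites. At an unadjusted p below 0.05 it was also 0 lower.

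The whole H3K4me3 table was shifted, however, with a median of 0.85 log2 units over all its sites. Measured from that median, the active promoters lay 0.26 log2 units higher at 15 weeks. Sites without an active promoter whose level fell in the middle 50 percent of the active promoters' own levels had a median difference of 1.03 log2 units in the authors' deposited table and were called higher in 89.9% of cases. Active promoters of that same level had a median of 1.13 and were called in 98.7%. How the table was scaled, and whether the Drosophila reads set the scale, is not given in the sources used here, so the common shift and a change at single promoters cannot be told apart.

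At 5 weeks the same libraries that chose the promoters enter the comparison, and its values are a description. The median H3K4me3 difference was 0.62 log2 units (1.54-fold) over 11561 active promoters in the authors' deposited table, next to a table median of 0.61. There, 9591 active promoters (83.0%) passed FDR below 0.05 upward and 2 downward, with 51.9% and 0.0129% of all 23236 sites doing so.

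For H3K27ac the active promoters lay near the median of all sites, but were called less often than other sites of their own level. At 15 weeks the median difference was 0.69 log2 units over 10910 active promoters in the authors' deposited table, with a table median of 0.71. The table called 1768 of them (16.2%) higher, against 15.5% of all 28322 sites, and 0 lower, also at an unadjusted p below 0.05 (0.0% of all sites). Sites without an active promoter, at the middle 50 percent of the active promoters' levels, had a median of 0.49 log2 units with 24.3% called higher, and active promoters of that level a median of 0.70 with 12.98%. The mean levels in that table follow from 1 CORT and 2 VEH libraries and not from 2 and 2, so its CORT value rests on the second CORT library alone. It has no site for 662 active promoters, which had a median width of 1453 bp and no H3K27ac peak in that CORT library. At 5 weeks the median was 0.49 log2 units over 11560 active promoters (table median 0.48), with 2077 (17.97%) passing upward and 13 downward, next to 17.2% and 0.134% of all 39581 sites. At matched level it was 31.2% of other sites and 20.02% of active promoters upward. Over input, however, the H3K27ac median at 5 weeks was 2.54 log2 units in CORT and 2.64 in VEH, the opposite direction. The levels over input were made separately for each group. The scaling is not given for either source, so the direction of the H3K27ac difference cannot be settled here.

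**Figure D4:**
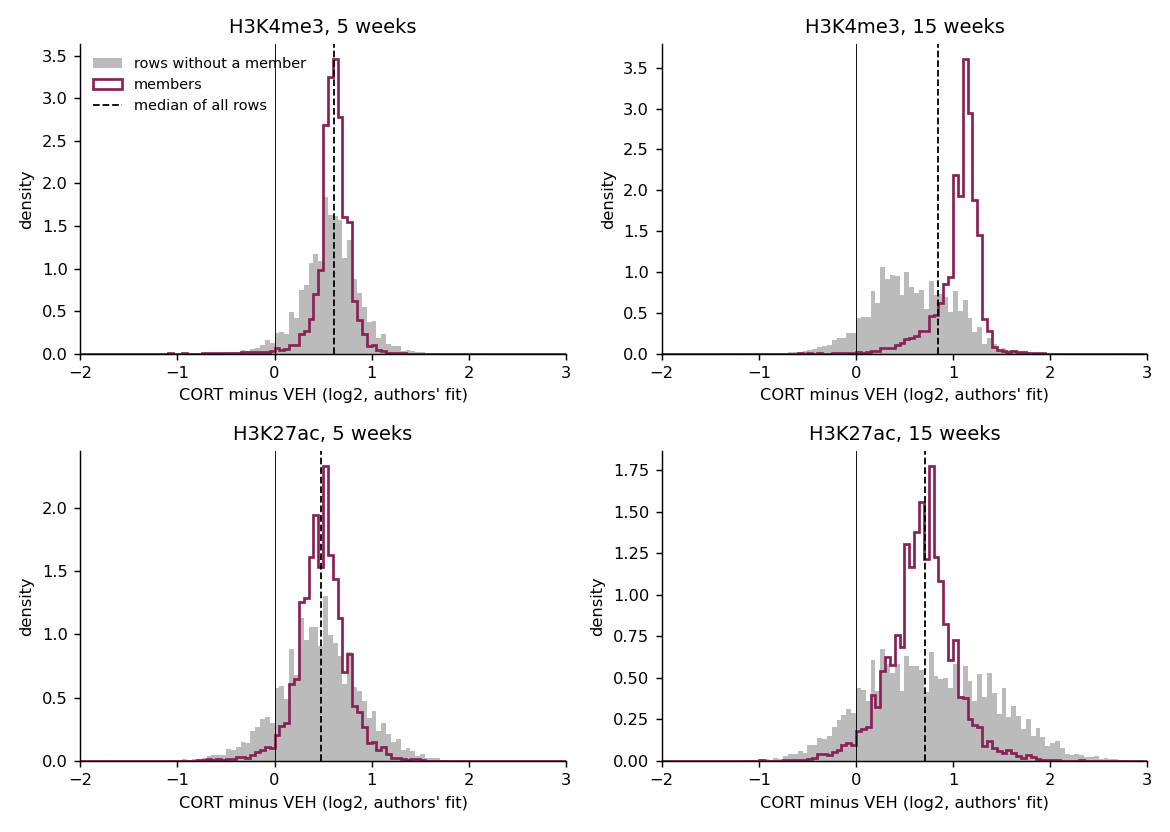
Distribution of the log2 difference between CORT and VEH in the authors' deposited tables for active promoters (purple line) and for sites without an active promoter (grey), by mark and time. Dashed lines mark the median of all sites (0.61, 0.85, 0.48 and 0.71). Only for H3K4me3 at 15 weeks does the median of the active promoters, 1.11, lie away from that line by more than 0.02.

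The active promoters differed from each other less than sites without an active promoter did, but not clearly less than the broad domains. The middle 50 percent of their H3K4me3 differences spanned 0.99 to 1.19 log2 units at 15 weeks in the authors' deposited table, where sites without an active promoter spanned 0.29 to 0.90. For H3K27ac at 15 weeks the spans were 0.49 to 0.87 and 0.29 to 1.25. The broad domains spanned 0.93 to 1.14 for H3K4me3 and 0.32 to 0.79 for H3K27ac at 15 weeks. Their standard deviations were 0.187 and 0.328, against 0.218 and 0.336 for the active promoters. At matched level the H3K4me3 spans were nearer to each other, 1.04 to 1.20 for active promoters and 0.86 to 1.17 for other sites. The matched H3K27ac spans were 0.52 to 0.87 and 0.12 to 1.08. On the autosomes the median H3K4me3 difference at 15 weeks ran only from 1.09 to 1.14 log2 units between chromosomes, and the H3K27ac difference from 0.65 to 0.72.

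The narrow promoters had the smaller H3K4me3 difference. At 15 weeks the median was 0.85 log2 units under 1000 bp, 1.09 from 1000 to under 2000 bp, 1.13 from 2000 to under 3000 bp and 1.10 from 3000 bp on, and the share called higher in the authors' deposited table was 45.1%, 87.4%, 98.2% and 98.1%. Width went with level, with VEH medians of 6.05, 7.98, 8.94 and 9.45 log2 units in these classes. H3K27ac had no such order, with medians of 0.67, 0.68, 0.70 and 0.67 log2 units and called shares of 22.5%, 10.997%, 17.3% and 29.6%. Split into 5 equal groups by their VEH H3K4me3 level at 5 weeks, the active promoters had a median H3K4me3 difference at 15 weeks of 0.91 in the lowest group and 1.10 to 1.15 in the other 4.

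Across active promoters the order of levels was kept between times. The VEH level at 5 weeks and at 15 weeks had a Spearman rho of 0.97 for H3K4me3 over 11546 promoters and of 0.94 for H3K27ac over 10909. The 2 marks were less alike, with a rho of 0.45 between their VEH levels at 15 weeks over 10900 promoters. The differences between CORT and VEH in the 2 marks had a rho of 0.42 at 5 weeks and 0.39 at 15 weeks. These are descriptions over regions of the same libraries, in which all regions share the depth and the scaling of their library. At 15 weeks 1687 of 10900 active promoters (15.5%) were called higher in both marks, 8315 in H3K4me3 alone, 81 in H3K27ac alone and 817 in neither. Taken singly, 90.8% of those with a site were called higher in H3K4me3 and 16.2% in H3K27ac. With so many called in H3K4me3, most calls in H3K27ac fall in the joint group whether or not the marks are linked. The joint share over all sites was not computed.

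A few promoters went against the common shift, and in VEH most of them lay inside long acetylated domains. In the H3K27ac table at 5 weeks, 13 active promoters at 10 sites were lower in CORT at FDR below 0.05, a share of 0.112% that is near the 0.134% of all sites. At 15 weeks, in libraries that did not choose them, all 13, still at 10 sites, were again below 0 in the authors' deposited H3K27ac table. They ran from -0.97 to -0.12 log2 units around a median of -0.43, although none passed FDR below 0.05. Below 0 in that table were 319 of 10910 active promoters and 2271 of all 28322 sites, and its CORT value rests on 1 library. In H3K4me3, 4 of the 13 were below 0 at 15 weeks. The H3K27ac values of the 13 at 5 weeks come from sites of 3589 to 14271 bp and do not describe the promoters alone. Widths here are those of the single peak that shares the most bases with the promoter, so a domain called as several peaks would count as short. Over these 13, the H3K27ac peak of the VEH libraries at 15 weeks had a median width of 4993 and 6471 bp, against 1649 and 2652 bp over all active promoters. In the CORT library at 15 weeks with the longer list, 10 of the 13 still had a H3K27ac peak, with a median width of 1836 bp, against 1955 bp over all active promoters. At 5 weeks the widths were 7741 and 7950 bp in VEH at all 13, and 1785 and 1275 bp in CORT at the 9 and 7 that kept a peak.

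**Figure D5:**
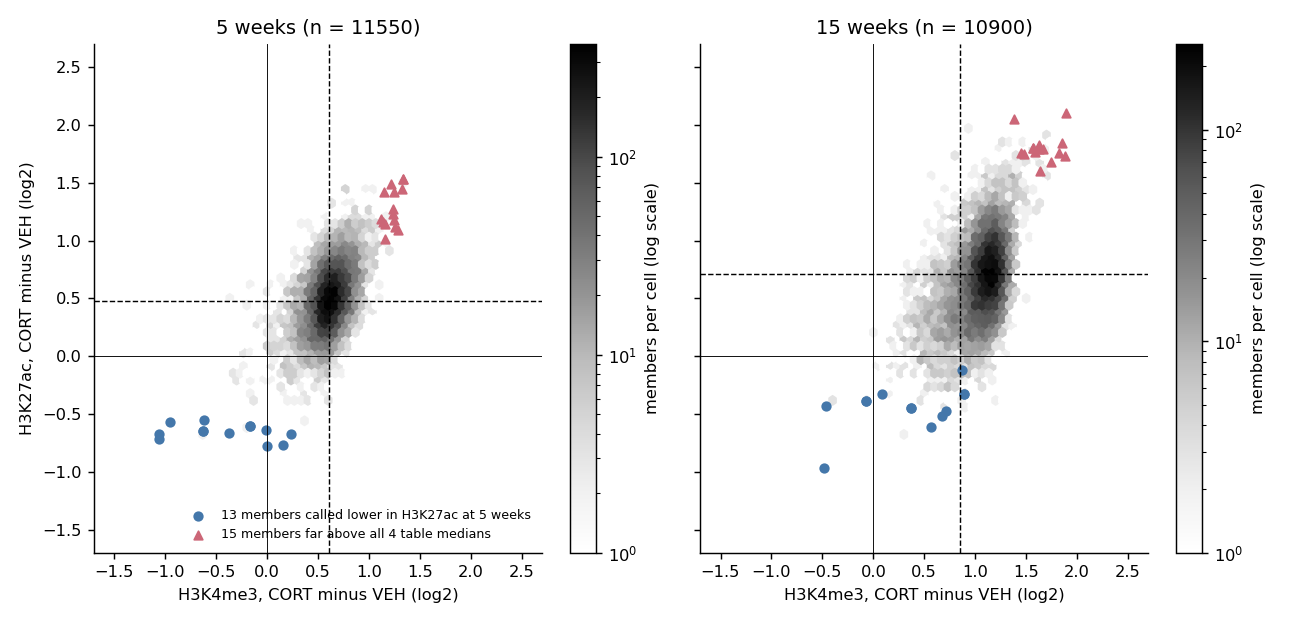
Difference between CORT and VEH in H3K4me3 (horizontal) and H3K27ac (vertical), in log2 units from the authors' deposited tables, at 5 weeks (left, 11550 promoters) and 15 weeks (right, 10900). Grey cells count promoters on a log scale and dashed lines are the table medians. The 13 promoters lower in H3K27ac at 5 weeks (blue circles) lie at -0.97 to -0.12 in H3K27ac at 15 weeks, and 15 promoters (red triangles) lie 0.5 or more above all 4 table medians.

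The clearest of them was chr10:79353596-79355302 (1707 bp). Its H3K4me3 peak was 1707 and 3404 bp wide in the VEH libraries at 5 weeks and 3524 and 2910 bp at 15 weeks. In CORT it was absent from both libraries at 5 weeks and, at 15 weeks, was 3336 bp wide in the first and absent from the second. Its H3K27ac peak was 12298 and 12282 bp wide in VEH at 5 weeks, and 1785 and 988 bp in CORT. At 15 weeks the H3K27ac peak was 6613 and 6131 bp wide in VEH and 1291 bp in the second CORT library, so the peak over the promoter was shorter in each CORT library that had one than in any VEH library. The authors' deposited tables gave H3K4me3 levels of 7.18 in VEH and 6.12 in CORT at 5 weeks, a difference of -1.06 log2 units (FDR 0.108), and of 7.93 and 7.45 at 15 weeks (-0.48, FDR 0.671). H3K27ac was 9.52 and 8.80 at 5 weeks (-0.72, FDR 0.0143) and 9.76 and 8.79 at 15 weeks (-0.97, FDR 0.425). These H3K27ac values cover sites of 12313 and 12382 bp, so they describe the long domain and not the promoter alone.

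Other promoters had a similar layout, and those on chromosome 5 were named after their values were seen. At chr7:147949525-147951297 the H3K27ac peak was 6289 and 6203 bp wide in VEH at 5 weeks and 5267 and 5948 bp at 15 weeks, against 1299 and 1330 bp in CORT at 5 weeks and 1961 bp in the second CORT library at 15 weeks. Its differences in the authors' deposited tables were -0.70 and -0.50 log2 units for H3K4me3 and -0.67 at both times for H3K27ac, with no FDR below 0.05. At chr5:114596119-114597991 the differences were -0.62 and -0.46 for H3K4me3 and -0.55 and -0.43 for H3K27ac, at 5 and 15 weeks, and only the H3K27ac value at 5 weeks passed (FDR 0.0369). The neighbouring chr5:65739229-65741404 and chr5:65741608-65742763 share 1 site in each table, which gave -0.63 and -0.07 log2 units for H3K4me3 and -0.65 and -0.39 for H3K27ac.

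The neighbouring promoters chr1:145487467-145489121, chr1:145489447-145490896 and chr1:145492327-145493776 lay in 1 H3K27ac peak of 9201 to 12054 bp in each of the 4 VEH libraries. In the first CORT library at 5 weeks the H3K27ac peak was 2232, 1863 and 0 bp wide over them, where 0 stands for no peak, and the second CORT library had none. In the second CORT library at 15 weeks the peaks were 2792, 834 and 1303 bp wide. The site they share in the authors' deposited tables differed by -0.39 log2 units for H3K4me3 (FDR 0.621) and -0.35 for H3K27ac (FDR 0.762) at 15 weeks.

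Only 2 active promoters passed FDR below 0.05 downward in H3K4me3 at 5 weeks. At chr8:3655536-3657969 the authors' deposited tables gave -0.93 log2 units at 5 weeks (FDR 0.00929) and -0.08 at 15 weeks (FDR 0.869), and the peak went from 2434 and 2766 bp in VEH at 5 weeks to none and 800 bp in CORT, with 2879 and 2465 bp in CORT at 15 weeks. At chr7:121563605-121564992 the difference was -0.95 at 5 weeks (FDR 0.0156). At 15 weeks that promoter is read through a site of 9241 bp, far wider than its own 1388 bp, whose difference of 0.87 does not describe the promoter alone. Its own H3K4me3 peak was absent from both CORT libraries at 5 weeks and from the second at 15 weeks, and its H3K27ac peak, 8499 to 9972 bp wide in the 4 VEH libraries, had no call over the promoter in any of the 4 CORT libraries. The H3K27ac level of its site, 9461 bp wide at 5 weeks and 9973 bp at 15 weeks, was 9.84 in VEH and 9.27 in CORT at 5 weeks (-0.57, FDR 0.0364), and 9.82 and 9.70 at 15 weeks (-0.12, FDR 0.900).

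At 4 other sites lower in H3K27ac at 5 weeks, H3K4me3 was called higher in CORT at 15 weeks. At chr9:107197947-107201743 the authors' deposited tables gave H3K27ac differences of -0.77 and -0.52 log2 units at 5 and 15 weeks, next to 0.16 and 0.67 for H3K4me3 (FDR 0.454 and 0.00168). At chr2:132671937-132674701 H3K27ac was -0.67 and -0.33, and H3K4me3 0.23 and 0.89 (FDR 0.255 and 1.94e-08). At chr10:75398020-75400494 H3K27ac was -0.78 and -0.61, and H3K4me3 0.00 and 0.57 (FDR 0.979 and 0.0275). At chr2:119176105-119178656, named after its values were seen, H3K27ac was -0.64 and -0.47, and H3K4me3 -0.01 and 0.71 (FDR 0.958 and 0.00254). The H3K4me3 difference at 15 weeks lay within 0.3 log2 units of the table median of 0.85 at these 4 sites.

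Set against the table medians in all 4 comparisons, 28 of 10892 active promoters lay 0.5 log2 units or more below and 15 lay as far above. These were picked from the values themselves, and their values describe them. The 28 had a median width of 1479 bp and a median H3K27ac peak of 5549 and 4946 bp in VEH at 5 weeks. The 15 had a median width of 1257 bp and lower VEH levels, with medians at 15 weeks of 7.03 for H3K4me3 and 7.01 for H3K27ac against 8.56 and 7.34 over all active promoters. Above 0 in all 4 tables were 10402 promoters and below 0 in all 4 were 11.

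The promoters with the smallest FDR among those higher in H3K4me3 at 15 weeks lay on chromosomes X, 11, 5 and 7. At chrX:103381569-103383545 the authors' deposited table gave 9.92 in VEH and 11.44 in CORT, a difference of 1.51 log2 units (FDR 1.71e-21), while H3K27ac differed by 0.52 (FDR 0.416). Its H3K4me3 peak was of similar width in all 8 libraries, 1977 to 3304 bp. At chr11:121562856-121566719 both marks rose, by 1.38 log2 units in H3K4me3 (FDR 2.81e-17) and 1.76 in H3K27ac (FDR 8.63e-08). There the H3K4me3 peak was 3513 and 7321 bp wide in VEH and 7988 and 12879 bp in CORT at 15 weeks. The other 3, chr5:139229782-139233353, chr11:118213451-118217317 and chr7:53174267-53177083, had differences of 1.38, 1.43 and 1.3 in H3K4me3 and of 0.80, 0.96 and 0.95 in H3K27ac (FDR 0.0905, 0.00876 and 0.00643).

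In H3K27ac at 15 weeks the smallest FDR fell on promoters that had large differences in H3K4me3 as well. At chr11:114794537-114795933 the authors' deposited table gave 7.78 in VEH and 9.88 in CORT for H3K27ac, a difference of 2.10 log2 units (FDR 5.51e-08), and 1.89 for H3K4me3 (FDR 0.00638). The first VEH library at 15 weeks had neither a H3K4me3 nor a H3K27ac peak there, while the second had 2092 and 6633 bp, and the CORT H3K4me3 peaks were 4007 and 6081 bp. At chr7:16843209-16844566 the difference was 2.05 for H3K27ac (FDR 1.85e-07) and 1.38 for H3K4me3 (FDR 0.0520), and the first VEH library again had no H3K4me3 peak. At chr17:71183522-71185061 it was 1.98 (FDR 1.21e-07) and 1.32 (FDR 0.0355), and at chr9:59386588-59389917 it was 1.82 (FDR 2.61e-08) and 1.24 (FDR 4.59e-14). With 2 VEH libraries that differ in peak calls, and 1 CORT library behind the H3K27ac values, the FDR of these sites rests on the spread the authors' fit estimated over all sites.

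The promoters with the smallest FDR upward at 5 weeks are given as a description. For H3K4me3 they were chr19:20462871-20465528, chr2:128252914-128255914, the neighbours chr8:86730914-86732192 and chr8:86732316-86733399, and chr7:53171372-53172649, with differences of 1.07, 1.11, 0.96, 0.96 and 1.02 log2 units in the authors' deposited table. At 15 weeks the H3K4me3 table gave 1.22, 1.22, 0.84, 0.84 and 0.85, all with FDR below 0.05. The neighbours on chr8 were read through 1 site of 12111 bp at 5 weeks and of 4570 bp at 15 weeks. For chr7:53171372-53172649 the sites were 6146 and 2670 bp wide. The values of these promoters at 5 and 15 weeks therefore cover different stretches. For H3K27ac they were chr14:34063244-34064462, chr5:76230691-76232353, chr12:70547167-70548863, chr17:3083753-3085363 and chr14:67485114-67488863, with 1.47, 1.31, 1.47, 1.19 and 1.05. At 15 weeks chr14:34063244-34064462 was at 1.62 (FDR 0.0287), chr12:70547167-70548863 at 1.73 (FDR 4.68e-05), chr17:3083753-3085363 at 1.18 (FDR 0.0112) and chr14:67485114-67488863 at 0.61 (FDR 0.115), while chr5:76230691-76232353 had no site. The H3K27ac site over chr14:34063244-34064462 was 7100 bp wide at 5 weeks and 1918 bp at 15 weeks.

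No active promoter was called lower in H3K27ac at 15 weeks. The smallest p-values below 0 belonged to chr5:124327005-124330719, the neighbours chr10:94037457-94040735 and chr10:94041185-94042074, chr9:48638516-48641092 and chr1:173169622-173170372, with -0.68, -0.38, -0.38, -0.44 and -0.57 log2 units and FDR of 0.231 to 0.327 in the authors' deposited table. At chr9:48638516-48641092 the H3K27ac peak was 7137 and 7111 bp wide in VEH at 5 weeks and 2251 and 7871 bp at 15 weeks. No peak was called over the promoter in the 4 CORT libraries, of which the first at 15 weeks had only 1810 peaks. The H3K27ac level of its site, 7207 bp wide at 5 weeks, was still 9.40 in VEH and 9.18 in CORT (-0.22, FDR 0.389). At 15 weeks, over 7872 bp, it was 9.45 and 9.01. H3K4me3 there was 0.91 log2 units higher in CORT at 15 weeks (FDR 8.17e-09).

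H3K27me3 could be compared at few active promoters. A H3K27me3 site in the authors' deposited tables lay over 211 at 5 weeks, where the absence of VEH peaks was part of the rule, with a median difference of 0.95 log2 units and 56 passing upward, next to 16.7% of all 7792 sites and a table median of 0.56. At 15 weeks 117 had a site, with a median of 0.94 against a table median of 0.65, and 15 (12.8%) were called higher against 15.9% of all 5992 sites. At that time 281 active promoters had a H3K27me3 peak in 1 or both CORT libraries, and 88 in 1 or both VEH libraries. Sites that rest mainly on CORT peaks favour a difference above 0, so no excess over the table median is read from either time. None was called lower at either time (0.0% of all sites).

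Most genes of a list of histone modifiers, which holds writers, erasers and their partners, had lower RNA in CORT at 5 weeks. By limma on log2(FPKM + 1) with Benjamini-Hochberg adjustment over 15601 genes, 21 of 32 histone modifier genes were lower and 2 higher at 5 weeks (21.5% and 22.3% of all genes), and 5 lower and 0 higher at 15 weeks (6.8% and 3.83%). The list's median difference was -0.44 log2 units at 5 weeks and -0.06 at 15 weeks, next to 0.01 and 0.00 over all genes. Setd1a, a methyltransferase of the SET1 complex, was at 9.19 ± 1.99 FPKM in VEH and 5.43 ± 1.45 in CORT at 5 weeks (SD, n = 5, limma adjusted p = 0.00212), and at 9.70 ± 2.04 and 10.02 ± 1.09 at 15 weeks (adjusted p = 0.858). Crebbp, which encodes the acetyltransferase CBP, was at 21.4 ± 3.08 and 12.9 ± 2.80 FPKM at 5 weeks (adjusted p = 0.000739) and 25.04 ± 4.47 and 23.0 ± 2.71 at 15 weeks (adjusted p = 0.689). The demethylase gene Kdm5b was at 13.8 ± 0.758 and 12.6 ± 1.06 FPKM at 5 weeks, with adjusted p = 0.292. By the same test Setd1b, Kmt2b, Ep300 and Cxxc1 were lower at 5 weeks, by log2 differences of -0.81, -0.69, -0.44 and -0.27, and none of the 7 genes named here passed at 15 weeks.

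Among 30 genes of the transcription machinery, 7 were higher and 3 lower at 5 weeks, where 22.3% and 21.5% of all genes were, and none passed at 15 weeks. Without the 7 libraries that carried liver, testis or epididymis transcripts, 9 histone modifier genes were lower and 0 higher at 5 weeks, and 2 transcription machinery genes were lower and 1 higher, where 13.6% of all 14703 genes tested were lower and 15.9% higher. No gene of either list was called at 15 weeks in that fit, where 0.782% of all genes were lower and 0.449% higher. In it Crebbp still passed at 5 weeks by limma (log2 difference -0.47, adjusted p = 0.0197). In that fit Setd1a, Setd1b, Kmt2b, Ep300 and Cxxc1 no longer passed at 5 weeks, with log2 differences of -0.45, -0.68, -0.41, -0.22 and -0.07 and limma adjusted p of 0.121, 0.0790, 0.168, 0.114 and 0.669. Most CORT libraries at 5 weeks were among the 7 left out, but of the VEH libraries of that time only VEH replicate 3. The fit therefore rests on few CORT libraries at 5 weeks, and the part of this in the lost calls was not tested. Markers of some other cells moved as well, but of all the marker sums computed, only the endothelial one did not overlap between VEH and CORT at 5 weeks. The summed FPKM of 12 endothelial markers was 217.9 to 395.7 in VEH and 113.3 to 163.5 in CORT at 5 weeks, and that of 13 measured macrophage markers was 768 to 1471 and 1248 to 3495, whose part in the RNA differences was not tested. The ChIP libraries cannot be matched to these RNA libraries by the labels, so no relation between the enzymes' RNA and the marks was computed. In bulk tissue, fewer cells of a type and less RNA or mark per cell cannot be told apart.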

How the data were processed

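Peak lists per library and site tables were deposited by the authors. Per the submitters' processing notes the tools were TopHat, Bowtie, DESeq2 and DiffBind, with builds mm9 and dm3; versions, peak caller and scaling are not given in the sources used here. Per the file headers, the site tables hold log2 levels per group, log2 fold, p-value and FDR, and the peak lists a score of at least 50. FPKM per gene and library was deposited by the authors. Read totals were not given.

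Each active promoter was read through the peak, or table row, sharing the most bases (at least 1). Promoters sharing a row share its values. Regions were named by smallest FDR (or p) per table, 5 upward and 5 downward, and by width; 1 named region and 1 gene are not reported here. Genes were named for their role. Promoters, lists and tests were chosen with earlier results of these data known. The planned RNA test of promoter genes was not run, because no mm9 annotation was used here, and no promoter sequence was printed. The 15601 genes reaching 0.5 FPKM in 5 or more libraries were fitted as log2(FPKM + 1) with limma 3.58.1 (R 4.3.3), 4 group means over 20 libraries, checked on simulated data. FDR values of the site tables are the authors'. Counts of peaks were made with pandas 2.3.3.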

Additional observations from a re-analysis of the deposited data

Results flagged for a closer look

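The CORT effect on RNA differed between the times for 2 genes of the SET1 complex. For Setd1a the effect at 15 weeks minus that at 5 weeks was 0.729 log2 units (limma interaction, adjusted p = 0.0321), and for Setd1b it was 0.918 (adjusted p = 0.0393). Ep300, the gene of the acetyltransferase p300, stood apart in VEH replicate 5 at 15 weeks, with 14.1 FPKM where the other 4 libraries held 19.1 to 20.8. That library also carried the Prm2 and Crisp1 transcripts given above, whose part was not tested. Chance alone sets about 1 in 20 groups apart in this way.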

How the results depend on the processing

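Of 59 recounts over regions, 54 stayed within 1.5 times the reported count. At FDR below 0.01, the authors' deposited tables called 552 active promoters higher in H3K27ac at 15 weeks, 249 higher and 0 lower in H3K27ac at 5 weeks, and 1 lower in H3K4me3 at 5 weeks. With peaks of a score of at least 100 only, 1 was lower in H3K4me3 at 5 weeks. The number of active promoters was 12602 to 13035 from 1 VEH library of each mark, and those with both marks in CORT at 5 weeks were 10007 to 11401 from 1 CORT library. Counting distinct table rows, chosen after seeing the data, gave 10204 higher in H3K4me3 and 1613 higher in H3K27ac at 15 weeks. Leaving out 1 RNA library at a time gave 17 to 21 histone modifier genes lower and 5 to 11 transcription machinery genes higher at 5 weeks, the 11 without VEH replicate 1 at 5 weeks. At 15 weeks the machinery genes lower were up to 2, the 2 without VEH replicate 4 or 5 at 15 weeks. Cxxc1 lost its call at 5 weeks in 5 of these fits. With the replicate number as a block, the histone modifier genes lower at 5 weeks were again 21; the labels do not pair libraries by number, 9 of 30 same-numbered pairs correlated above 0.1 and 2 of 20 libraries were closest to their own number. No paired analysis was possible for the marks because the tables give group means. The RNA of promoter genes was not tested under any setting, since no gene was linked to a region. Read totals per library were not given, so what depth limits cannot be put in numbers.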
